A study of Clytia hemisphaerica and Astroides calycularis and Pocillopora acuta with 16 samples.

Results

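Messenger RNA levels of a nitric oxide synthase and of guanylate cyclases carrying a haem-NO-binding domain were compared between the aboral and oral ends of planula larvae of cnidarians, which swim with cilia. The 4 genes were taken by identifier from 67007 gene models. They were NOS1 of the hydrozoan Clytia hemisphaerica (XLOC_031247) and 1 ortholog trio, with a member in Clytia (XLOC_001000), in the coral Astroides calycularis (STRG.6289) and in the coral Pocillopora acuta (XP_027045335). The trio carries guanylate cyclase, haem-NO-binding and haem-NO-binding-associated domains in the study's annotation. The genes had been picked with their aboral and oral levels in these libraries in view, so their difference between the ends is given as a description and without a test. The counts were listed by gene identifier alone, so gene positions and sequences are not given here.

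Nitric oxide synthases make the gas nitric oxide from the amino acid arginine, with tetrahydrobiopterin as a cofactor. The gas crosses membranes and binds the haem of guanylate cyclases, which then make the second messenger cGMP from GTP. Cyclic nucleotides act through protein kinases and ion channels with cyclic nucleotide-binding domains, and phosphodiesterases break them down. Nitric oxide and cGMP have been studied in the settlement and metamorphosis of larvae of several marine invertebrates, among them ascidians, sea urchins and sponges. Cnidarian planulae commonly settle by the aboral end.

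Clytia larvae came from a laboratory strain, Astroides larvae from wild colonies, and Pocillopora larvae from the cultured colonies C3 and C5, which are the same genotype and pass dinoflagellate symbionts to their larvae. Larvae were bisected with no experimental treatment, those of Clytia after anaesthesia on ice. RNA was taken from pools of aboral ends, oral ends or, in Clytia and Astroides, uncut larvae. There were 16 libraries in 8 groups of 2, with C3 as replicate 1 and C5 as replicate 2 in Pocillopora, where a library held only a few pieces of larva. The labels number the replicates of Clytia and Astroides, and p-values measure the spread between these pools alone. In Pocillopora a colony gave 1 library per end. P-values between colonies therefore take the 2 ends of a colony as its replicates and measure no spread within a colony.

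Libraries held 30129270 to 31043438 counts for Clytia, 23146999 to 26980344 for Astroides and 20256336 to 24838448 for Pocillopora. The end labels were set beside aboral markers of the study, most of them listed by it from these same libraries. It had listed 17 of 18 markers in Clytia, 4 of 4 in Astroides and 1 of 4 in Pocillopora. In Clytia and Astroides the markers are therefore no independent check of the labels. In Pocillopora they are not fully independent either, since the study identified its aboral cell clusters with the help of these libraries. The summed level of 18 Clytia neurosecretory markers was 5010 to 5700 CPM (counts scaled to a library total of 1000000) in aboral and 33.1 to 38.01 CPM in oral libraries, and 4 of 4 apical cell markers in Astroides and 3 of 4 in Pocillopora were called higher at the aboral end. Levels below are in CPM and compare a gene between libraries of 1 species only, since transcript lengths were not used. In these bulk samples, fewer cells of a type and less RNA per cell cannot be told apart.

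NOS1 was high at the aboral end of the Clytia planula. It stood at 17.8 and 18.1 CPM in the aboral libraries, at 11.1 and 8.91 CPM in the uncut libraries and at 3.03 and 3.14 CPM in the oral libraries, from 94 to 549 counts per library. The 3 groups did not overlap, and the replicates of each end were close to each other. The mean was 17.9 ± 0.175 CPM in aboral and 3.08 ± 0.0773 CPM in oral ends (SD, n = 2), a ratio of 5.82, and the fitted log2 fold change was 2.58 ± 0.14 (SE). In Clytia, 18.4% of the 15599 genes tested were called aborally higher and 14.8% orally higher (edgeR's quasi-likelihood test, adjusted p under 0.05). A fit that blocks on the replicate number called 3546 orally higher genes in place of 2304.

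Uncut larvae were set against the same aboral and oral libraries, so this reading is not separate from the difference between the ends. On a scale from 0 at the mean of oral ends to 1 at that of aboral ends, uncut larvae stood at 0.47 for NOS1. Their mean of 10.02 ± 1.58 CPM (SD, n = 2) lay beside the 10.5 CPM halfway between the ends. On the log2 scale uncut larvae were above the mean of the ends by 0.43 ± 0.11 (95% interval 0.17 to 0.69), which did not pass the test (adjusted p = 0.241, edgeR). The log2 scale itself places an even mix of unequal ends above their mean, by 0.50 for NOS1. Across Clytia genes, 1.03% were called higher and 0.160% lower in uncut larvae, or 161 and 25 genes, and 343 and 99 with the replicate block.

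**Figure D1:**
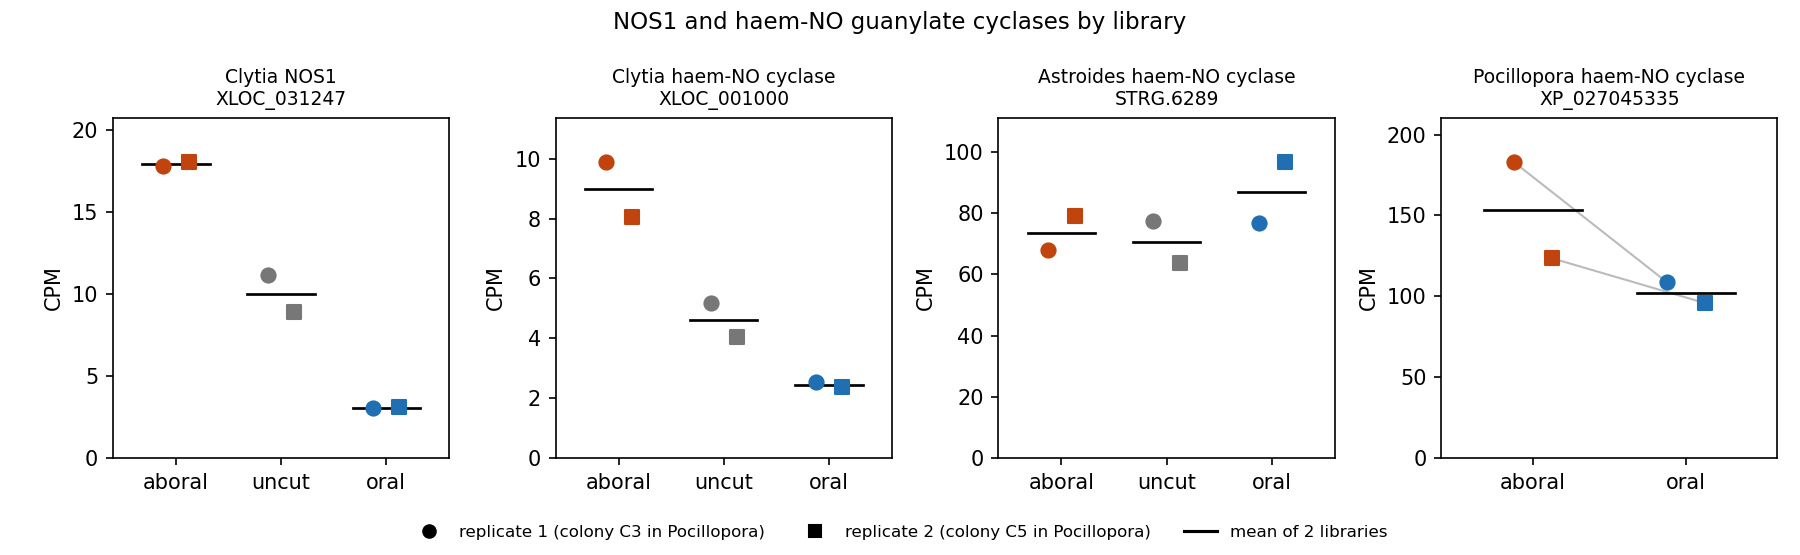
Level of each gene in CPM (vertical axes, from 0) by the piece of larva sequenced, with 1 point per library, circles for replicate 1 and squares for replicate 2, and a black line at the mean of 2 libraries. Grey lines join the ends of the same Pocillopora colony. Aboral points lie above oral points in both Clytia panels and in Pocillopora, and overlap with them in Astroides.

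The haem-NO guanylate cyclase of Clytia, XLOC_001000, was also higher at the aboral end. Its level was 9.89 and 8.07 CPM in aboral libraries, 5.18 and 4.05 CPM in uncut libraries and 2.54 and 2.36 CPM in oral libraries, from 73 to 305 counts per library. Again the groups did not overlap. The means were 8.98 ± 1.29 CPM in aboral and 2.45 ± 0.130 CPM in oral ends (SD, n = 2), with a log2 fold change of 1.92 ± 0.18 (SE). Uncut larvae, at 4.61 CPM, stood closer to the oral end than for NOS1, at position 0.33. Their log2 difference from the mean of the ends was -0.03 ± 0.16 (95% interval -0.39 to 0.33, adjusted p = 0.999, edgeR), and an even mix would lie at 0.28. Whether the positions of the 2 genes differ was not tested.

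The orthologs of this cyclase in the corals had other profiles. In Astroides, STRG.6289 stood at 67.9 and 79.1 CPM in aboral libraries, 76.8 and 96.7 CPM in oral libraries and 77.3 and 63.8 CPM in uncut libraries. All 3 groups overlapped. The oral library was the higher one in both same-numbered pairs, and the log2 fold change of aboral against oral was -0.21 ± 0.16 (SE), with a 95% interval of -0.59 to 0.17. Uncut larvae differed from the mean of the ends by -0.18 ± 0.14, which did not pass the test (adjusted p = 0.903, edgeR). The background in Astroides was 3.47% of 21254 genes called aborally higher and 3.51% orally higher, and 0.207% higher and 0.0141% lower in uncut larvae. With the replicate block these counts rose from 738 and 747 to 1312 and 1299 between the ends, and from 44 and 3 to 165 and 35 for uncut larvae.

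In Pocillopora, XP_027045335 stood at 183 CPM in aboral ends of C3 and 124 CPM in aboral ends of C5, against 109 CPM in oral ends of C3 and 95.9 CPM in oral ends of C5. Both aboral libraries lay above both oral libraries. The log2 ratio of aboral to oral CPM was 0.75 in C3 and 0.37 in C5, and the fitted log2 fold change with the colony as a block was 0.57 ± 0.14 (SE, 95% interval 0.22 to 0.92). For this contrast 3.82% of 17164 genes were called aborally higher and 4.22% orally higher. Between the colonies, which the choice of genes did not use, C5 was below C3 at each end. The test between colonies has only the ends of a colony as its replicates. This difference of -0.48 ± 0.14 on the log2 scale (95% interval -0.82 to -0.13) missed the threshold (adjusted p = 0.0682, edgeR), where 9.35% of genes were called higher in C5 and 9.89% higher in C3. The log2 difference was -0.64 in aboral ends alone and -0.27 in oral ends alone, with no test. Differences between the 3 species in the change of this trio were not tested.

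Clytia has a second gene with nitric oxide synthase domains, and this gene had the opposite profile. XLOC_003367 carries the same annotated domains as NOS1, namely the synthase oxygenase domain, flavodoxin, and FAD-binding and NAD-binding domains. It stood at 15.5 and 19.9 CPM in aboral libraries, 86.4 and 71.3 CPM in uncut libraries and 129 and 135 CPM in oral libraries. The log2 fold change was -2.85 ± 0.14 (SE), given as a description because the study listed this gene as oral on the same libraries. Uncut larvae were above the mean of the ends by 0.70 ± 0.11 on the log2 scale (adjusted p = 0.0186, edgeR), and an even mix would lie at 0.63. This call was lost without uncut replicate 1 (0.58, adjusted p = 0.189). On the position scale uncut larvae stood at 0.46 for this gene.

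The NOS1 orthologs of the corals were not called between the ends. In Astroides, STRG.17139 stood at 15.7 and 4.45 CPM in aboral libraries, 13.9 and 7.77 CPM in oral libraries and 5.27 and 6.78 CPM in uncut libraries. The 2 replicates of an end differed by more than the ends did, and replicate 1 was the higher one at both ends. The log2 fold change was -0.07 ± 0.58 (SE, adjusted p = 0.976, edgeR), with a wide 95% interval of -1.44 to 1.305. Its sign turned with the library left out, from -1.27 to 0.54.

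In Pocillopora the NOS1 ortholog XP_027059105 stood at 24.6 CPM in C3 and 39.2 CPM in C5 at the aboral end, and at 23.4 and 37.8 CPM at the oral end. The values grouped by colony and not by end. The aboral against oral difference was 0.08 ± 0.14 on the log2 scale (95% interval -0.29 to 0.44, adjusted p = 0.772, edgeR). Between colonies its level was higher in C5 by 0.58 ± 0.14, the reverse of the sign seen for the cyclase XP_027045335. It was called (adjusted p = 0.0487, edgeR), with the ends as the only replicates of a colony. This call was close to the threshold, with adjusted p = 0.0540 under another scaling of the libraries and 0.124 with DESeq2. Some cell class markers differed between the colonies, with 2 of 2 for specialized epidermis higher in C5 (median log2 difference 3.99). Also higher were 1 each of 3 epidermal, 3 gland and mucous, 4 neurosecretory and 3 cnidocyte markers, while 1 of 6 neural markers was lower. Of 4 apical, 3 gastroderm, 2 digestive filament and 2 secretory markers 0 were called. Over all genes 9.35% were called higher in C5 and 9.89% higher in C3. The part of these cell classes in the colony differences was not tested.

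**Figure D2:**
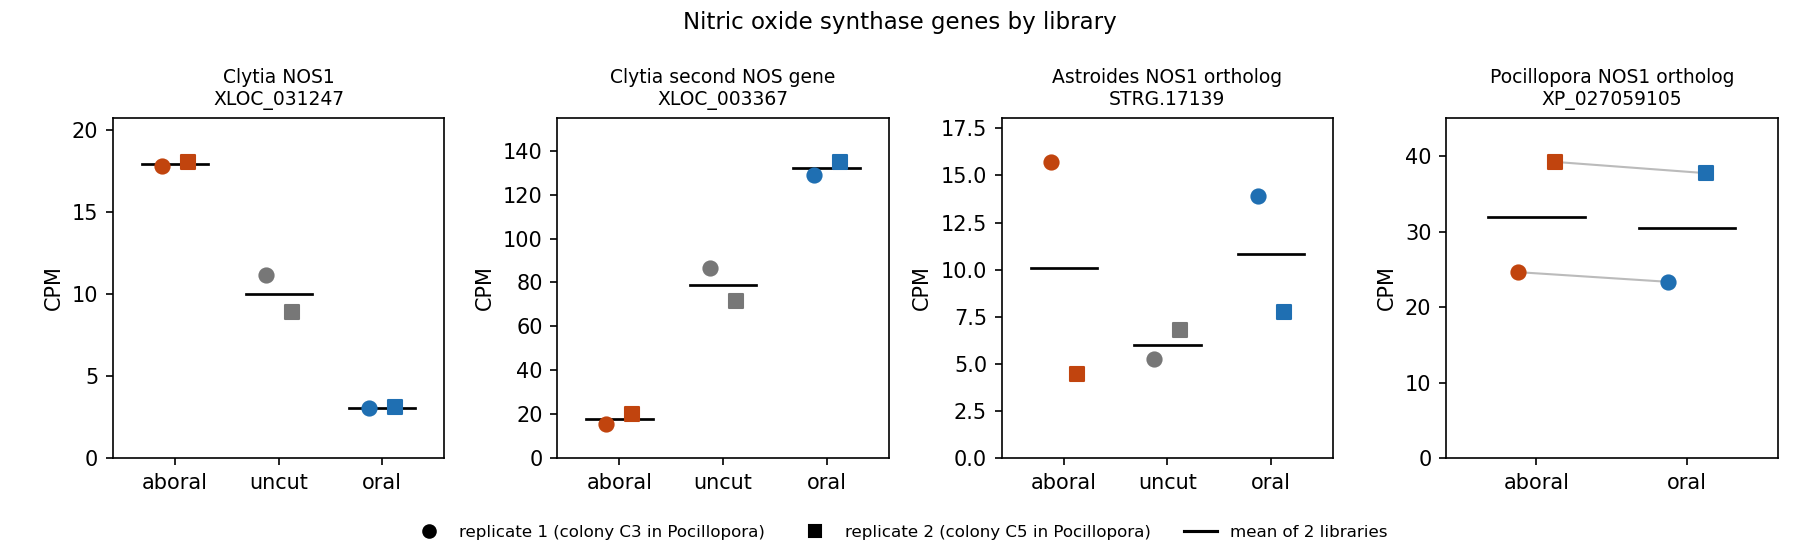
Level in CPM (vertical axes, from 0) of the genes annotated as nitric oxide synthases in each library, drawn as in the plot of the cyclases. NOS1 falls from aboral to oral and the second Clytia gene rises, while the Astroides ortholog is spread between replicates and the Pocillopora ortholog differs by colony.

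A list of 30 further genes with roles around nitric oxide and cyclic nucleotides was described by role. In Clytia 10 passed the filter on low counts. Of these, 8 were called higher at the aboral end, against 18.4% of all genes, and 1 at the oral end, against 14.8%. The other gene was not called. The median log2 fold change of the 10 was 1.59, against -0.01 over all genes tested. This count says little, since 8 of the 10 had been listed by the study from the same libraries and are given as a description. Of the 2 genes outside those lists 1 was called, the cyclic nucleotide-binding gene XLOC_008214. It stood at 31.9 and 32.3 CPM in aboral and at 20.0 and 17.9 CPM in oral libraries (0.80 ± 0.09, adjusted p = 0.000350, edgeR).

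Upstream of the synthase, argininosuccinate synthase, which helps to regenerate arginine, was higher at the aboral end of Clytia in both libraries. XLOC_007077 stood at 125 and 108 CPM in aboral against 43.1 and 27.8 CPM in oral libraries, a log2 fold change of 1.76 ± 0.20 that is a description. Its orthologs were not called in Astroides (STRG.11702, -0.25, adjusted p = 0.747) or Pocillopora (XP_027048079, 0.05, adjusted p = 0.843). A pair of Astroides genes for 6-pyruvoyl tetrahydropterin synthase, an enzyme of tetrahydrobiopterin synthesis, took opposite ends. STRG.21126 stood at 41.9 and 63.9 CPM in aboral and 0.797 and 0.260 CPM in oral libraries, and STRG.21127 at 1.56 and 1.48 CPM in aboral and 10.7 and 7.06 CPM in oral libraries. Both had been listed by the study from these libraries. Uncut larvae were above the mean of the ends by 2.31 ± 0.30 for STRG.21126 (adjusted p = 0.0581, and 0.0137 with the replicate block), and an even mix of its ends would lie at 2.34.

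The other guanylate cyclases on the list were of the receptor type, with a ligand-binding region outside the cell and a kinase-like domain. An ortholog trio of this type, which also carries the haem-NO-binding-associated domain, was flat in Clytia (XLOC_010942, 127 to 149 CPM in the 6 libraries). Its log2 fold change there was 0.04 ± 0.10 (95% interval -0.18 to 0.27, adjusted p = 0.782). In Pocillopora the member of this trio, XP_027052586, was lower at the aboral end, with 16.6 and 9.77 CPM against 37.3 and 21.7 CPM in oral ends for C3 and C5. The change of -1.15 ± 0.16 passed the test (adjusted p = 0.0233, edgeR), but not without the colony block (adjusted p = 0.595). It was also lower in C5 than in C3, by -0.88 ± 0.16 on the log2 scale (adjusted p = 0.0236), a call lost without the end term (adjusted p = 0.466). The Astroides member STRG.19349 differed by -0.59 ± 0.24 (adjusted p = 0.259). A further receptor-type cyclase of Clytia, XLOC_013404, stood at 5.68 and 5.28 CPM in aboral and 1.19 and 1.26 CPM in oral libraries, a log2 fold change of 2.20 ± 0.19 (SE) that is a description.

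Downstream, the Clytia genes on this list with cyclic nucleotide-binding domains stood higher at the aboral end. All but XLOC_008214 had been listed as aboral by the study from these libraries, and any outside the study's annotation were not examined. The study's aboral genes were a protein kinase (XLOC_012048, 2.18), an ion transport gene (XLOC_045142, 2.10) and the genes XLOC_043408 (2.17) and XLOC_033514 (1.43), with log2 fold changes in brackets. A phosphodiesterase with GAF domains, XLOC_040048, stood at 109 CPM in aboral and 43.9 CPM in oral ends on average (1.35 ± 0.08). Its orthologs were not called in Astroides (STRG.18680, 0.22, adjusted p = 0.460) or Pocillopora (XP_027056813, -0.05, adjusted p = 0.836).

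In the corals, where 6.99% of all genes in Astroides and 8.05% in Pocillopora were called between the ends against 33.2% in Clytia, the list was described in the same way. In Astroides 11 passed the filter on low counts, of which 2 were called higher and 2 lower at the aboral end. The median log2 fold change of the 11 was -0.25 against 0.00 over all genes. The 3 that the study had listed are given as a description. Of the 8 genes there that the study had not listed, 1 was called. This was STRG.24632, a gene with a cyclic nucleotide-binding domain, at 96.0 and 97.0 CPM in aboral and 55.3 and 58.7 CPM in oral libraries (0.79 ± 0.11, adjusted p = 0.00917, edgeR). The call was lost without aboral replicate 1 (adjusted p = 0.0671) or aboral replicate 2 (adjusted p = 0.0924). Its neighbours in role STRG.25935 (0.88 ± 0.20) and STRG.24657 (-0.62 ± 0.20) missed the threshold at adjusted p = 0.0512 and 0.155, and passed it with the replicate block at 0.0189 and 0.0432. The ion transport gene STRG.24735, listed by the study as oral, stood at 8.75 and 6.76 CPM in aboral and 27.3 and 31.9 CPM in oral libraries.

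In Pocillopora 8 of 9 listed genes were tested, of which 1 was lower at the aboral end and 0 were higher by edgeR, with a median of 0.06 against -0.03 over all genes. The ninth, XP_027040240, had 0 counts in both aboral libraries and 28 and 2 counts in the oral libraries of C3 and C5, and did not pass the filter on low counts. Between colonies 1 gene of the 8 was higher in C5 and 1 was lower, near the 9.35% and 9.89% of all genes. In uncut larvae against the ends, 1 of 10 genes was called in Clytia and 0 of 11 in Astroides by edgeR. The called gene was the second synthase gene, at 0.70 where an even mix of its ends would lie at 0.63. Over all genes 1.03% were called higher and 0.160% lower in Clytia, and 0.207% and 0.0141% in Astroides.

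**Figure D3:**
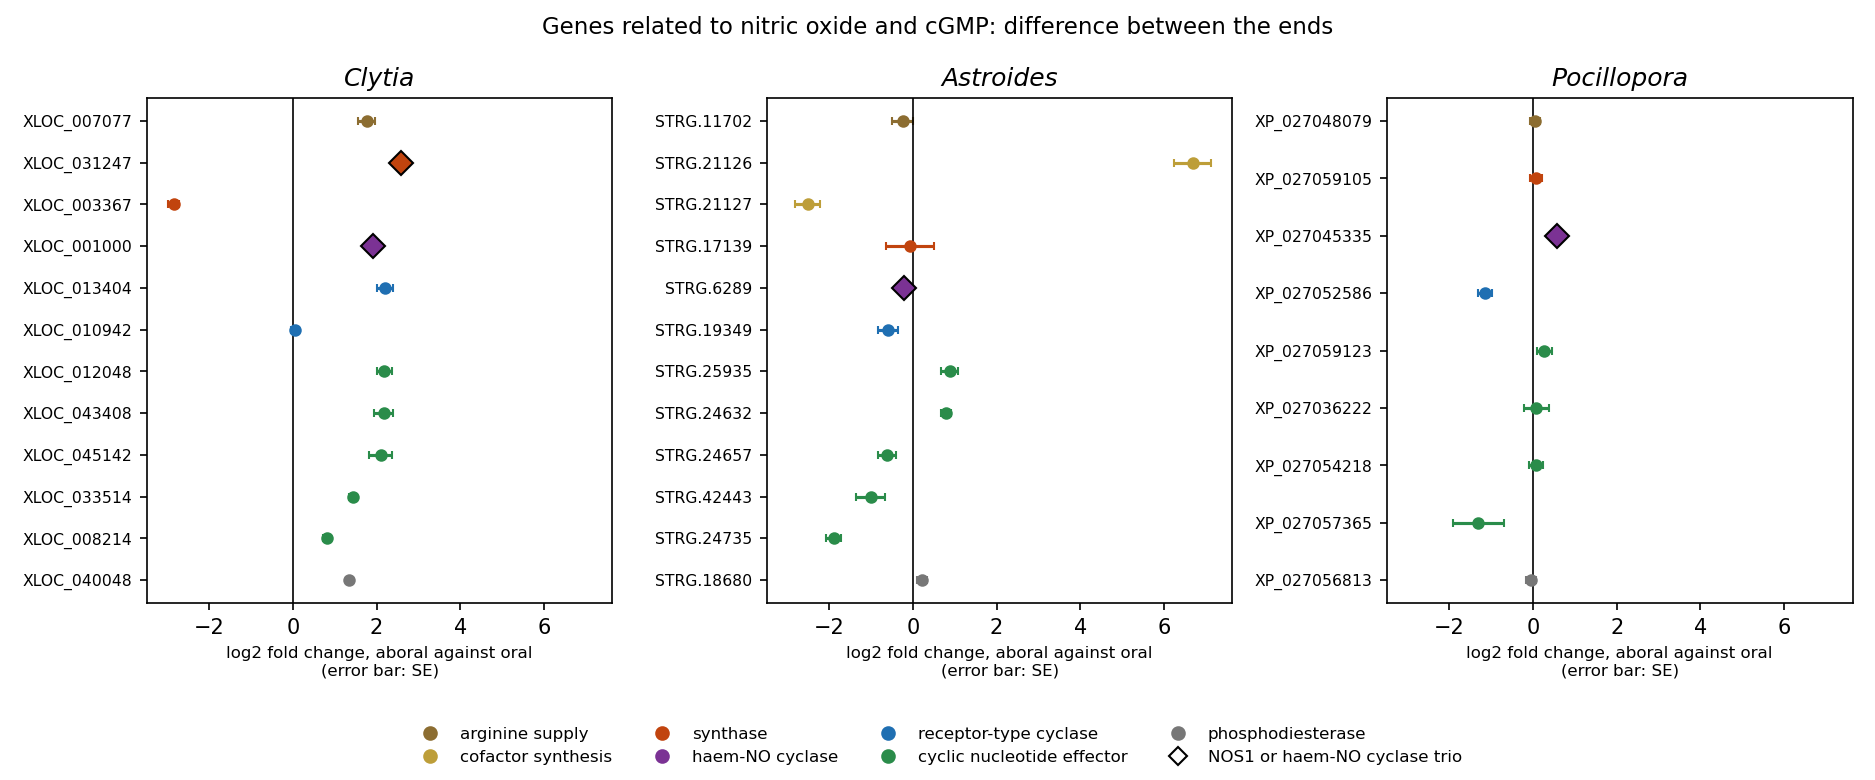
Fitted log2 fold change of aboral against oral ends (horizontal axes, bars show the SE) for the genes of the nitric oxide and cyclic nucleotide list that passed the filter, coloured by role, with diamonds for NOS1 and the haem-NO cyclase trio. In Clytia 10 of the 12 genes drawn lie between 0.80 and 2.58, and the second synthase gene lies at -2.85. The corals have no such grouping on 1 side. Beside the diamonds, the study had listed 8 of 10 genes in Clytia from these libraries and 3 of 11 in Astroides. In Pocillopora 9 of 9 were unlisted, so the panels differ in how their genes were chosen and do not compare the species.

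Likeness of profile was measured as the root mean square difference between centred log2 CPM values over the libraries of a species, so that a low value means the same shape. Among 1661 annotated Clytia genes the closest to NOS1 were a sulfotransferase domain gene (XLOC_037631, 0.0895), a receptor of the secretin family with 7 transmembrane segments (XLOC_041855, 0.0967) and a member of the major facilitator superfamily of transporters (XLOC_032990, 0.0998). The annotated genes came from tables that favour genes enriched at an end. The study counts NOS1 among 26 markers of QYFamide neurons from single-cell data, and the precursor of the QYFamide peptides, pp9-QYFamide (XLOC_041442), is the defining one. In these libraries pp9-QYFamide stood at 28.03 and 33.3 CPM in aboral, 16.1 and 14.8 CPM in uncut and 4.93 and 4.37 CPM in oral libraries. Its distance from NOS1 was 0.135 over 6 libraries, the lowest of the 25 other markers, and 17 of the 15599 genes tested were closer.

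Most of these neuron markers were called between the ends. Summed, the 26 stood at 332 to 356 CPM in aboral, 193 to 217 CPM in uncut and 96.1 to 110 CPM in oral libraries, and 24 were called higher at the aboral end, against 18.4% of all Clytia genes, with a median log2 fold change of 2.13. The other 2 were not called. NOS1 itself is 1 of the 26, and the study had listed 17 of them from these libraries. Of the 9 unlisted markers 7 were called higher. The study also chose this cell type with the help of these libraries, so the count is not independent evidence. Of the markers of other aboral types, 17 of 20 for GLWamide neurons, 14 of 14 tested for HFRIamide neurons and 18 of 18 for neurosecretory cells were called higher at the aboral end too. The part of any one of these cell types in the NOS1 difference was not tested.

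The Clytia cyclase XLOC_001000 was farther from NOS1 than pp9-QYFamide was, at 0.363, and 258 of the 15599 genes tested were closer to NOS1. From pp9-QYFamide the cyclase lay at 0.436. The closest annotated genes to it were an ankyrin repeat gene (MSTRG.2362, 0.0767), a cytochrome P450 (XLOC_042550, 0.103) and the basic helix-loop-helix factor BHLHA15 (XLOC_015394, 0.115), at 1.21 CPM in aboral and 0.339 CPM in oral ends. The cyclase is on none of the marker lists used here. Of the 26 QYFamide markers 12, NOS1 among them, were closer to it than pp9-QYFamide was. Among all 15599 genes tested 880 were.

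In the corals the profiles had fewer annotated genes to be set against. The closest to STRG.6289 among 321 annotated Astroides genes were the zinc finger genes ZF-C3H11 (STRG.10901, 0.130), STRG.17808 (0.132) and OVOL1 (STRG.10931, 0.137), and at least 557 genes of the whole table were closer than each of these. The closest to XP_027045335 among 273 annotated Pocillopora genes were a receptor like GABBR1, a subunit of the metabotropic GABA receptor (XP_027040334, 0.0701), the homeobox gene NKX2-5 (XP_027041575, 0.134) and RFX6 (XP_027036421, 0.155), over 4 libraries. Of the 17164 genes tested in Pocillopora, 24, 162 and 283 were closer than these genes in turn. The receptor stood at 377 and 252 CPM in aboral and 250 and 209 CPM in oral ends of C3 and C5. In Pocillopora 3 of 3 gastroderm markers and 1 of 2 digestive filament markers were lower at the aboral end, against 4.22% of all genes. Higher were 3 of 3 gland and mucous, 3 of 4 apical and 2 of 4 neurosecretory markers, against 3.82%. Of these the study had listed 2 gland and mucous, 1 apical and 1 neurosecretory marker from the same libraries. No epidermal, specialized epidermis, secretory or cnidocyte marker was called there. Neural markers were split, with 1 of 6 higher and 1 of 6 lower in either coral. The part of these cell classes in the coral values was not tested.

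**Figure D4:**
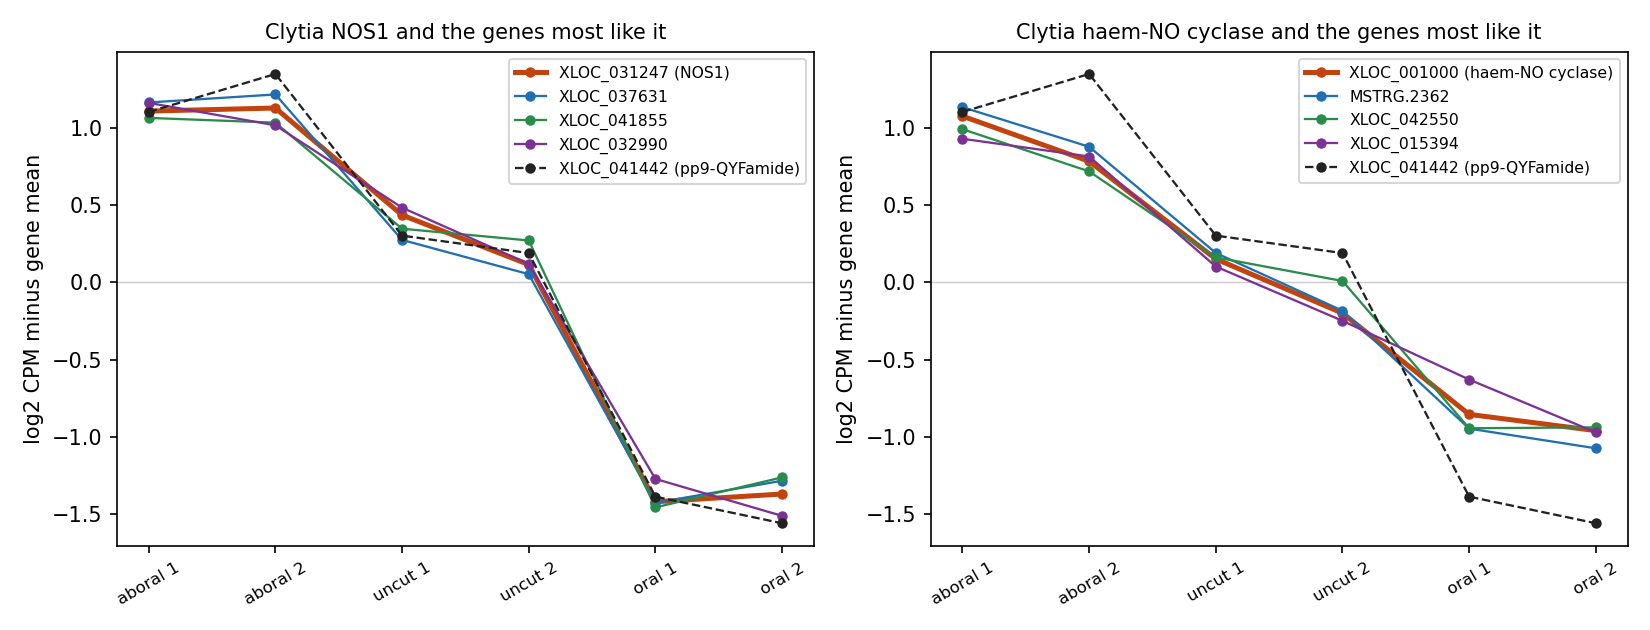
Log2 CPM minus the mean of the gene (vertical axes, with 2 added to each count) in the 6 Clytia libraries for NOS1 (left) and the haem-NO cyclase (right), each with its 3 closest annotated genes and, dashed, pp9-QYFamide. The dashed line runs with NOS1 and spreads wider than the cyclase.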

How the data were processed

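The authors mapped the reads with STAR in its gene count mode and deposited raw counts per gene model, in 1 file per library. The assembly was that of Pocillopora damicornis for Pocillopora acuta, and the strand setting is not given in the sources used here. Names and domains came from the study's tables, matched on the identifier. Of the Clytia identifiers, 0 matched the reference gene table. Genes passing filterByExpr were tested per species in R 4.3.3 with edgeR 4.0.16 (TMM scaling, quasi-likelihood, Benjamini-Hochberg adjustment over all genes tested), on all 6 libraries in Clytia and Astroides and on 4 in Pocillopora with the colony as a block. The script was tested on simulated data, where it recovered the size of the changes made, missed most of the smaller ones in Astroides, and made more false calls than the threshold allows, most so in Pocillopora. Alternatives were DESeq2 1.42.0, other size factors, no filter, the replicate block and leaving out each library.

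In Clytia and Astroides the main fits held no replicate term, so their SEs and p-values leave the pairing out. Libraries with the same number do pair, because the methods count their material together, and a fit blocked on that number is quoted where it changes a call or clearly moves a count. Replicate differences correlated across genes at r = 0.260 to 0.398 in Clytia, 0.200 to 0.643 in Astroides and 0.828 in Pocillopora.

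The 4 genes and the gene lists were chosen with earlier results of these data known. Named genes were these 4, all genes of the nitric oxide and cyclic nucleotide list, the 3 annotated genes closest to each and pp9-QYFamide.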

Additional observations from a re-analysis of the deposited data

Results flagged for a closer look

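Same-numbered pairs of libraries moved to opposite ends in both replicates for several ortholog pairs, with log2 fold changes of aboral against oral given here. None of these differences between species was tested. They were the haem-NO cyclases XLOC_001000 (1.92) against STRG.6289 (-0.21) and STRG.6289 against XP_027045335 (0.57). The others were XLOC_007077 (1.76) against STRG.11702 (-0.25), XLOC_043408 (2.17) against STRG.42443 (-1.01) and XLOC_045142 (2.10) against STRG.24657 (-0.62). Likewise the phosphodiesterases XLOC_040048 (1.35) and STRG.18680 (0.22) both differed in sign from XP_027056813 (-0.05), whose 95% interval of -0.34 to 0.25 spans 0. Its log2 ratio of aboral to oral CPM was -0.021 in C3 and -0.094 in C5. With TMM scaling each colony alone gave values from -0.046 to 0.00897, so the sign depended on the scaling.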

How the results depend on the processing

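For the 4 genes, the difference between the ends kept its sign under each alternative run. It ranged from 2.56 to 2.60 for NOS1, from 1.77 to 2.05 for XLOC_001000, from -0.35 to -0.06 for STRG.6289 and from 0.41 to 0.78 for XP_027045335. The uncut difference of XLOC_001000 turned sign with the library left out, from -0.19 to 0.13, and was not called in any. No test of NOS1, STRG.6289 or XP_027045335 changed its call, at adjusted p of 0.0570 to 0.874 for uncut NOS1, where the replicate block gave the lowest. The colony difference of XP_027045335 was -0.64 in aboral ends and -0.27 in oral ends. With 1 library left out, XLOC_010942 ranged from -0.083 to 0.157, STRG.11702 from -0.597 to 0.0459 and STRG.17139 from -1.27 to 0.54 between the ends, and with 1 colony left out XP_027048079 from -0.041 to 0.191 and XP_027056813 from -0.046 to 0.00897. The replicate block changed no call beside those given above. The cause of these changes was not tested.

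Counts over all genes moved more. Leaving out 1 library gave 1360 to 2157 oral genes in Clytia, where the full set gave 2304, and 289 to 558 aboral and 231 to 566 oral genes in Astroides, where it gave 738 and 747. For uncut larvae it gave 106 to 180 higher and 6 to 36 lower genes in Clytia, and 7 to 32 and 0 to 2 in Astroides. DESeq2 called 49 lower genes in uncut Clytia larvae, and 162 higher and 46 lower in Astroides, where the other scaling gave 1 lower. Without the colony block edgeR called 0 genes between the ends of Pocillopora, 1587 at an unadjusted p under 0.05, and DESeq2 called 706. Without the end term the colonies differed at 44 and 43 genes. Depth limits XP_027040240 and XP_027057365 most, with 0 to 32 counts per library.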
